A study of Homo sapiens with 6 samples.

Results

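Genes of the Notch pathway were followed in MDA-MB-231, an established cell line of triple-negative breast cancer. The set named for study held 10 genes: the receptors NOTCH1, NOTCH2, NOTCH3 and NOTCH4, the ligands JAG1, JAG2, DLL1 and DLL4, and the target genes HES1 and HEY1. They were matched by gene symbol to a table of 25706 genes. A single row was found for each of 9 genes, and HEY1 was not analysed here. The rule that chose the members names pathway genes and uses no measured value, but it was written with earlier results of these data known. Oligo(dT)-selected RNA was sequenced from 3 libraries in which the tRNA-derived small RNA tsRNA-Gly-5-0006 was overexpressed and from 3 libraries of control cells. All 6 libraries come from the same line. The labels do not say how the small RNA was delivered, what the control cells carry, or whether each library had its own culture. Without that, the p-values measure only the spread between these samples.

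Notch receptors are transmembrane proteins that are activated by ligands of the Jagged and Delta-like families on a neighbouring cell. Ligand binding lets ADAM proteases and then gamma-secretase cut the receptor, and the freed intracellular domain enters the nucleus. There it joins the DNA-binding protein RBPJ and a Mastermind coactivator, and together they switch on target genes such as HES1 and HEY1, which encode transcriptional repressors. In the breast, Notch signalling is known for its part in luminal cell fate, and in breast cancer for links to stem-like growth and invasion.

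Deposited counts summed to between 58870830 and 73126731 in the overexpression libraries and to between 54371226 and 74586916 in the control libraries. Genes were tested with the edgeR quasi-likelihood test over 15951 genes, with Benjamini-Hochberg adjustment and a threshold of 0.05. Of markers checked for this line, VIM, encoding vimentin, averaged 421 ± 49.8 FPKM in overexpressing and 419.5 ± 33.7 FPKM in control cells (SD, n = 3 each), where FPKM are fragments per kilobase of transcript and 1000000 mapped fragments. PGR, encoding the progesterone receptor, had 0.0527 CPM in overexpression 1 and was listed at 0 in the other 5 libraries. ERBB2, encoding the HER2 receptor, averaged 5.70 FPKM over the 6 libraries and GATA3, a luminal factor, 0.739 FPKM. Epithelial keratins lay above VIM, with means of 2143 FPKM for KRT19, 585 for KRT8 and 507 for KRT18, and CLDN4 averaged 119.7 FPKM, while CDH1 and EPCAM averaged 0.0241 and 0.211 FPKM. CPM here are counts per 1000000 counts, scaled by TMM. Overexpression 1 stood apart, since 9.52% of tested genes had more than 1.5 times the CPM there of every other library, against 0.596% to 1.05% for each of the other 5. Log2 fold changes of members and named pathway genes are therefore given with and without that library. Mean shares, the summed ligand level, spreads, the NOTCH2 paralogs and the fits with a GC offset are given with all 6 libraries only.

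The pathway members fell into 2 tiers of level. HES1, NOTCH2, JAG2, JAG1 and NOTCH1 lay between 0.395 and 2.64 FPKM in every library. NOTCH3, NOTCH4, DLL1 and DLL4 lay at or below 0.181 FPKM in every library. Over all 6 libraries the mean levels ran in the order HES1 (1.75 FPKM), NOTCH2 (1.46), JAG2 (0.958), JAG1 (0.580), NOTCH1 (0.523), NOTCH3 (0.0679), NOTCH4 (0.0525) and DLL1 (0.0416), with DLL4 last. HES1 had a higher mean FPKM than 74.0% of all genes in the table, NOTCH1 than 61.9%, and DLL4 than 5.34%. Ranges over the libraries overlapped between neighbours in this order from HES1 down to NOTCH1, and again among NOTCH3, NOTCH4 and DLL1. They did not overlap between NOTCH1 and NOTCH3, the step between the tiers, or between DLL1 and DLL4. Within a library the order was steadier. NOTCH2 exceeded JAG2, JAG2 exceeded JAG1 and JAG1 exceeded NOTCH1 in 6 of 6 libraries, and HES1 exceeded NOTCH2 in 5 of 6, overexpression 1 being the exception.

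**Figure D1:**
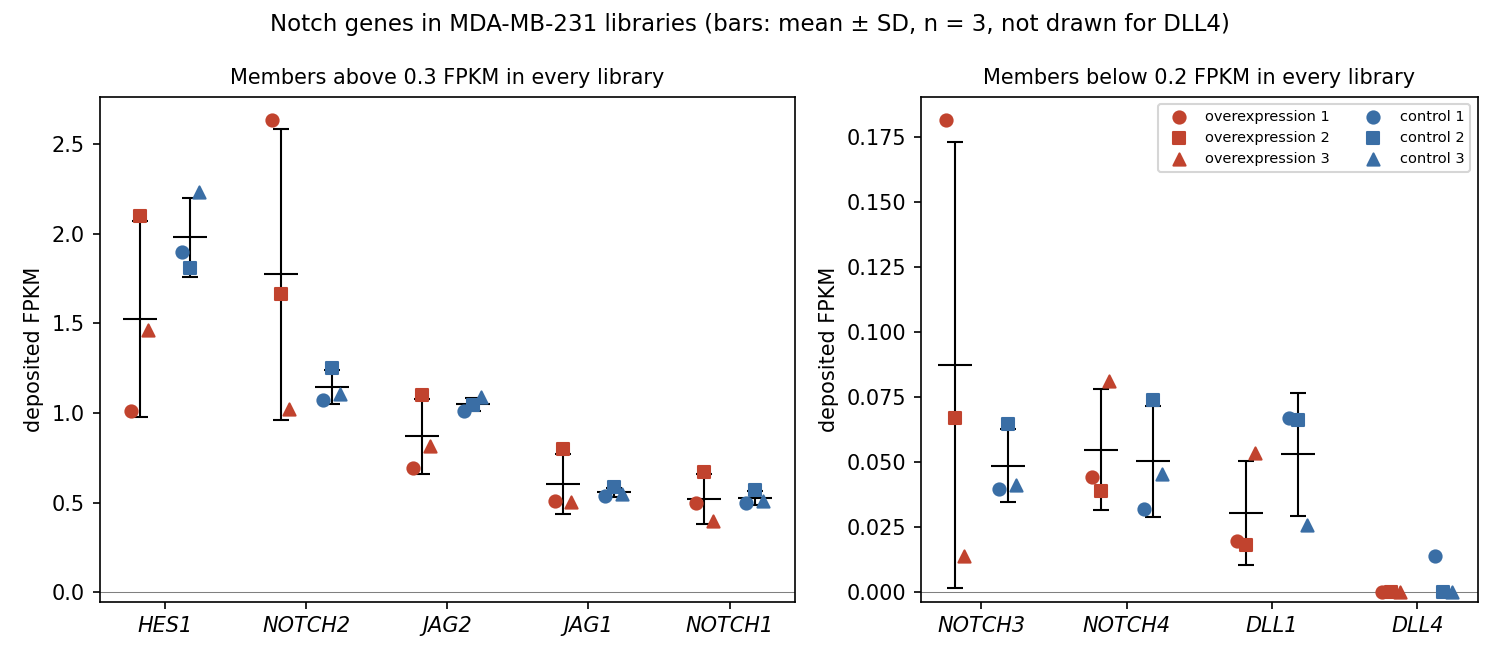
Deposited FPKM of the 9 measured Notch genes in each library, with overexpression left of control for each gene and linear vertical axes that differ between the panels. Horizontal ticks and bars give mean and SD (n = 3) and are left out for DLL4; overexpression 1 is the highest point for NOTCH2 (2.64 FPKM) and NOTCH3 (0.181 FPKM) and the lowest for HES1 (1.01 FPKM).

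The gene length implied by count and FPKM was nearly the same in every library but longer than the longest transcript of most genes. Its median was 1.09 times the longest transcript for genes with 1 annotated transcript and 2.72 times for genes with at least 21. What a count stands for is not given, so a scale common to all genes may enter every ratio alike, and its size was not tested. For NOTCH2 the length implied by count and FPKM was 1.60 times the longest GENCODE 29 transcript, for JAG1 1.72 times and for JAG2 1.20 times. Levels of genes with many annotated transcripts may thus be understated relative to genes with few. With counts per kilobase of the longest transcript and 1000000 counts, an alternative chosen after seeing the data, 7 of the 9 genes kept their place in the order. NOTCH4 (mean 0.0848) and NOTCH3 (0.0817) exchanged places.

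Among the receptors, NOTCH2 dominated. It supplied 71.4% ± 6.10 of the summed receptor FPKM in overexpressing and 64.8% ± 0.734 in control cells, and NOTCH1 supplied 22.8% ± 6.95 and 29.8% ± 0.683 (SD, n = 3 each). NOTCH3 and NOTCH4 together made up the small remainder in each library. NOTCH2 is a broadly expressed receptor, and its row (ENSG00000134250, hg38 chromosome 1, 119911553 to 120069662) had the highest deposited counts of the members.

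NOTCH2 had 2.64, 1.66 and 1.02 FPKM in overexpression 1, 2 and 3, against 1.07, 1.25 and 1.11 FPKM in control 1, 2 and 3. In FPKM, overexpression 1 and 2 lay above all controls and overexpression 3 lay below them, so the groups overlapped. In CPM overexpression 3 (19.98) lay just above the lowest control (19.88). Its log2 fold change was 0.57 (SE 0.28, 95% confidence interval -0.08 to 1.22, adjusted p = 0.994 by edgeR), and the unadjusted p was 0.0781. Without overexpression 1 the log2 fold change was 0.19 (SE 0.17, adjusted p = 1 by edgeR). Leaving out overexpression 3 instead gave 0.81, with an unadjusted p of 0.00685 and an adjusted p of 0.434 by edgeR. NOTCH2 thus did not pass the test, and the size of its difference depended on which overexpression library was used.

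Reads of NOTCH2 can be shared with its near-identical human paralogs NOTCH2NLA, NOTCH2NLB, NOTCH2NLC and NOTCH2NLR, which carry copies of its first exons. NOTCH2NLA had 46.8, 50.1 and 70.2 CPM in overexpression 1, 2 and 3, against 45.5, 56.0 and 59.0 CPM in control 1, 2 and 3. NOTCH2 had 45.9, 28.4 and 19.98 CPM in the same overexpression libraries and 19.9 to 22.6 CPM in control. The high value of overexpression 1 was therefore seen for NOTCH2 and not for NOTCH2NLA. None of the 4 paralogs passed the test, and their log2 fold changes ran between -0.09 (NOTCH2NLR) and 0.23 (NOTCH2NLC). How the authors' counting divided shared reads is not given in the sources used here, so each of these levels is uncertain.

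NOTCH1 encodes the founding human member of the family and the receptor most often mutated in T-cell leukaemia. Its row (ENSG00000148400, chromosome 9, 136494433 to 136546048) held 0.498, 0.671 and 0.395 FPKM in overexpression 1, 2 and 3, against 0.499, 0.569 and 0.508 FPKM in control 1, 2 and 3. The overexpression libraries spread to both sides of the controls. The log2 fold change was -0.07 (SE 0.19, interval -0.53 to 0.39, adjusted p = 0.9998 by edgeR), -0.03 without overexpression 1, and 0.05 without overexpression 3. The interval with all 6 libraries spans 0.695-fold to 1.31-fold.

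NOTCH3, a receptor best known from vascular smooth muscle and pericytes (ENSG00000074181, chromosome 19, 15159038 to 15200995), was near the limit of detection. It had 0.181, 0.0669 and 0.0138 FPKM in overexpression 1, 2 and 3, from 135, 42 and 11 deposited counts. The controls had 0.0396, 0.0646 and 0.0412 FPKM, from 23, 42 and 32 counts. Overexpression libraries thus held both the highest and the lowest value. The log2 fold change was 0.75 (SE 0.74, adjusted p = 0.9998 by edgeR) and turned to -0.32 (SE 0.65) without overexpression 1. Without overexpression 3 the estimate was 1.24, with an unadjusted p of 0.0409 and an adjusted p of 0.437 by edgeR.

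NOTCH4, an endothelial receptor (ENSG00000204301, chromosome 6, 32194843 to 32214237), had 26 to 63 deposited counts in overexpressing and 19 to 48 in control cells. That is 0.0386 to 0.0812 FPKM and 0.0317 to 0.0736 FPKM, with overlapping groups. The log2 fold change was 0.15 (SE 0.46, adjusted p = 0.9998 by edgeR), 0.29 without overexpression 1, -0.30 without overexpression 3 and -0.08 without control 1. The gene's end overlaps GPSM3 on the same strand, and GPSM3 had 1447 to 2237 counts, so some of the NOTCH4 counts may be reads of that neighbour.

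**Figure D2:**
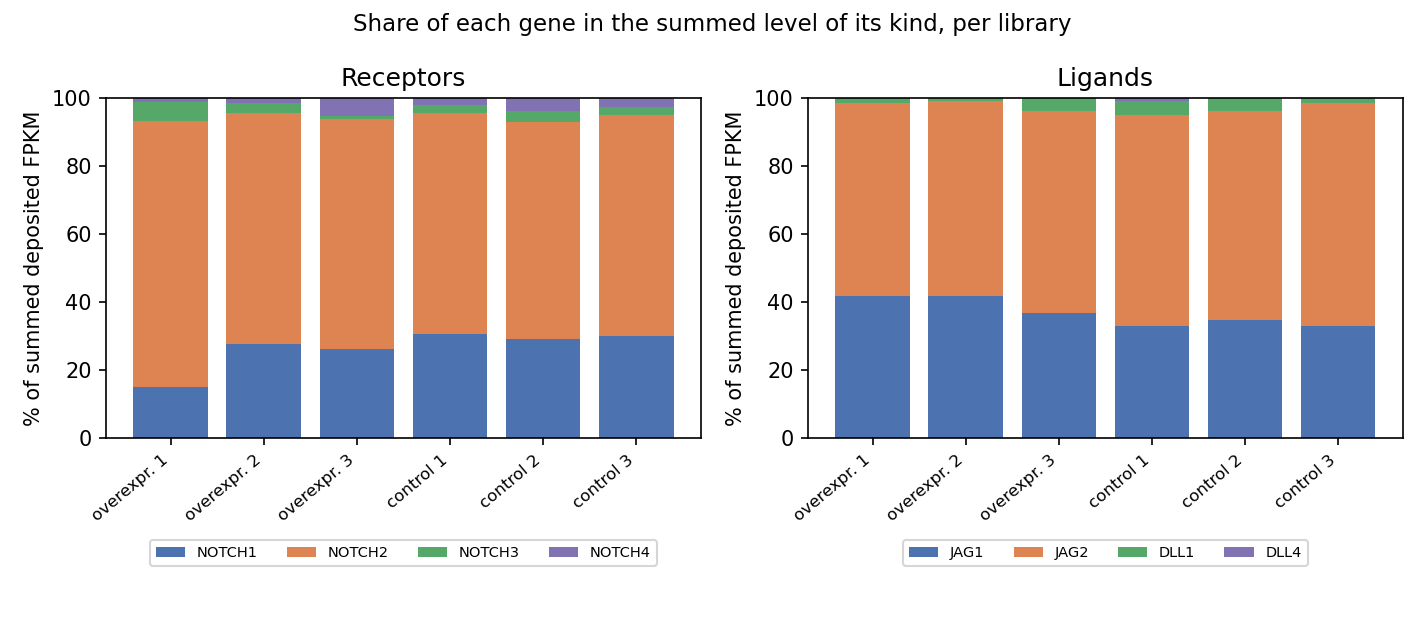
Share of each gene in the summed deposited FPKM of the 4 receptors (left) and the 4 ligands (right), in percent, with 1 bar per library and overexpression left of control. NOTCH2 takes 67.6% to 78.5% of the receptor sum in overexpression and 63.9% to 65.3% in control libraries, and JAG1 takes 36.7% to 41.7% and 32.9% to 34.6% of the ligand sum.

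On the ligand side, the Jagged genes carried nearly all of the measured level. JAG2 supplied 57.8% ± 1.40 of summed ligand FPKM in overexpressing and 63.0% ± 2.12 in control cells, and JAG1 40.02% ± 2.86 and 33.5% ± 0.916 (SD, n = 3 each). The shares of the groups did not overlap for JAG1 and JAG2, nor for NOTCH1 and NOTCH2 among the receptors. This is a description, since shares within a sum depend on each other and were not tested, and for 8.22% of all tested genes the groups did not overlap in FPKM itself. The summed ligand level was 1.503 ± 0.366 FPKM in overexpressing and 1.66 ± 0.0320 FPKM in control cells.

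JAG2 (ENSG00000184916, chromosome 14, 105140982 to 105168824) encodes a ligand first studied in limb and thymus. It had 0.693, 1.10 and 0.814 FPKM in overexpression 1, 2 and 3, against 1.01, 1.04 and 1.09 FPKM in control 1, 2 and 3. In FPKM, overexpression 1 and 3 lay below every control, and overexpression 2 lay above every control. In CPM overexpression 2 (7.21) lay within the control range (7.19 to 7.93). The log2 fold change was -0.32 (SE 0.20, interval -0.79 to 0.16, adjusted p = 0.996 by edgeR), and it was -0.17 (SE 0.17) without overexpression 1.

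JAG1 (ENSG00000101384, chromosome 20, 10637684 to 10673999) encodes the ligand whose loss causes Alagille syndrome. It had 0.510, 0.799 and 0.503 FPKM in overexpression 1, 2 and 3, against 0.537, 0.585 and 0.549 FPKM in control 1, 2 and 3. Here overexpression 2 was high and the other two overexpression libraries lay just under the controls. The log2 fold change was 0.06 (SE 0.21, interval -0.42 to 0.54, adjusted p = 0.9998 by edgeR). It was 0.18 without overexpression 1 and -0.14 without overexpression 2.

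DLL1 and DLL4 encode Delta-like ligands, DLL4 being the main one of sprouting endothelium. DLL1 (ENSG00000198719, chromosome 6, 170282206 to 170306565) had 7, 5 and 16 deposited counts in overexpression 1, 2 and 3, against 16, 18 and 8 in control 1, 2 and 3. Its log2 fold change was -0.76 with an interval from -2.42 to 0.90 (SE 0.71, adjusted p = 0.9998 by edgeR), -0.55 (SE 0.88) without overexpression 1 and -1.41 without overexpression 3, and no difference was detectable at this depth. DLL1 also overlaps FAM120B on the other strand, which had 342 to 593 counts, and whether counting used strand is not given in the sources used here. DLL4 (ENSG00000128917, chromosome 15, 40929340 to 40939073) had 4 deposited counts in control 1 and was listed at 0 in the other 5 libraries. It was below the filter on low counts and was not tested.

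HES1 is the classic direct target of Notch and encodes a basic helix-loop-helix repressor that also represses its own promoter. It had the highest mean level of the members (ENSG00000114315, chromosome 3, 194136148 to 194138732). HES1 had 1.01, 2.10 and 1.47 FPKM in overexpression 1, 2 and 3, against 1.901, 1.81 and 2.23 FPKM in control 1, 2 and 3. Overexpression 1 and 3 lay below every control, and overexpression 2 lay within the control range. The log2 fold change was -0.43 (SE 0.28, interval -1.09 to 0.23, adjusted p = 0.996 by edgeR), or -0.20 (SE 0.21, adjusted p = 1) without overexpression 1. The interval with all 6 libraries runs from 0.469-fold to 1.18-fold. With 1 library left out, the log2 fold change ran between -0.67 (without overexpression 2) and -0.20 (without overexpression 1).

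The 250 bases before the RefSeq start of HES1 hold both kinds of site through which the gene is known to be controlled, and are printed with those of NOTCH2 and JAG2, the receptor and the ligand with the highest level. Sequences are from RefSeq, build GRCh38.p14, given 5′ to 3′ on the strand of the gene. Capitals mark the RBPJ core TGGGAA and the N box CACNAG bound by HES repressors, each searched on both strands.
HES1, chr3:194135898-194136147, plus strand: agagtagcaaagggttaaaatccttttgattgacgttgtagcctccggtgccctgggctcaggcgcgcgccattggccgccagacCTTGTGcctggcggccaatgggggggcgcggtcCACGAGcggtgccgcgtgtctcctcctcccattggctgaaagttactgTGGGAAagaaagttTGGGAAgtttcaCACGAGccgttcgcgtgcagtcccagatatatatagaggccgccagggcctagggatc
NOTCH2, chr1:120069663-120069912, minus strand: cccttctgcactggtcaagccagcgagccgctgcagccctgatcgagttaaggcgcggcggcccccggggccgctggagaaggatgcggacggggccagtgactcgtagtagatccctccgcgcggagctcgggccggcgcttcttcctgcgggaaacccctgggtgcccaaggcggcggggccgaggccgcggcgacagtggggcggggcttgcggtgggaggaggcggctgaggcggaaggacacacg
JAG2, chr14:105168777-105169026, minus strand: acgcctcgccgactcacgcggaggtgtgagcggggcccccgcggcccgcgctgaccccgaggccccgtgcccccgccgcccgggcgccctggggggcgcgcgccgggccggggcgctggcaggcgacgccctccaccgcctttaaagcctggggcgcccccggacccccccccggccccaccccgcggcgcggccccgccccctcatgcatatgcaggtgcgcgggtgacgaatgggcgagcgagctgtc
In HES1 the RBPJ core was found 2 times on the gene's strand, beginning 84 and 70 bases before the start, and the N box 3 times, beginning 165, 132 and 58 bases before it. The RBPJ core was found in 21.1% of 27305 promoter windows of this length, and 2 or more times in 2.92%. The N box was found in 32.0%, and 2 or more times in 6.28%. No match of either motif was found in these windows of NOTCH1, NOTCH2, JAG1, JAG2 or DLL4, and NOTCH3 and NOTCH4 had 1 N box each. The deposited and the RefSeq starts coincided for HES1, NOTCH1, NOTCH2, NOTCH3, JAG1 and DLL4, and differed by 48 bases for JAG2 and 9830 bases for NOTCH4. Of the 9 genes 8 matched the promoter table, and DLL1 did not. A match is a run of letters and does not show binding.

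The genes whose log2 CPM followed HES1 most closely over the 6 libraries, among 8027 genes with a mean of at least 1 FPKM, were GNB5 (Pearson r 0.996), RPL23AP42 (0.989) and HNRNPL (0.988). Without overexpression 1 they were OS9 (0.993), GNB5 (0.989) and ULK3 (0.986). These values describe so few libraries that they carry no test, and 39 genes had r above 0.95 with all 6 libraries. GNB5, a G protein beta subunit gene, was named by both rankings.

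Set side by side, the 8 tested members gave no call. None of them had an adjusted p under 0.05 by edgeR with all 6 libraries, where the share over all tested genes was 0.0%. None had an unadjusted p under 0.05, where 3.83% of all genes did (2.56% higher and 1.27% lower in overexpressing cells). For none did the groups separate in FPKM, as they did for 8.22% of all genes (5.67% higher and 2.55% lower). With 8 genes, counts of 0 are near these backgrounds. Log2 fold changes were positive in 4 of 8 members, with a median of -0.00, against 54.8% positive and a median of 0.02 over all tested genes. Without overexpression 1 they were positive in 3 of 8, with a median of -0.10, against 51.6% and 0.01. Again 0 of 8 had an adjusted p under 0.05, against 0.0247% of all genes (0.00617% higher and 0.0185% lower). Likewise 0 of 8 had an unadjusted p under 0.05, against 2.89% (1.31% higher and 1.58% lower), and 0 of 8 had separated groups, against 15.5% (9.81% higher and 5.7% lower). With all 6 libraries DESeq2 passed 0 members and 12 of all genes, and it gave NOTCH2 an unadjusted p of 0.0376 and an adjusted p of 1.

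**Figure D3:**
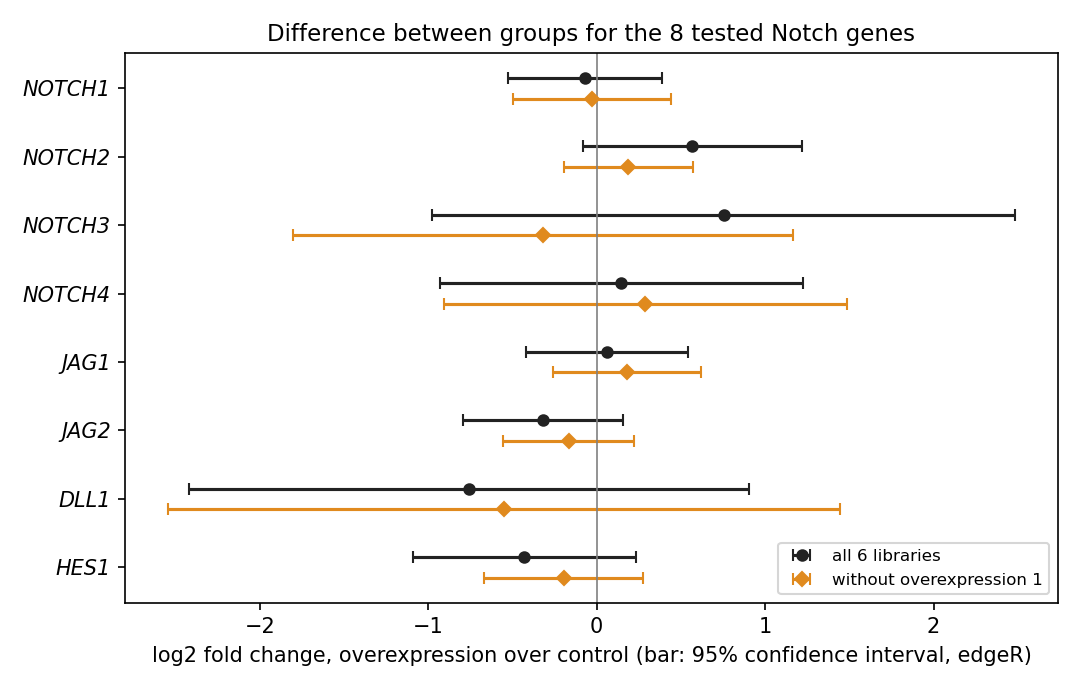
Log2 fold change of overexpression over control for the 8 tested members from edgeR, with 95% confidence intervals as bars, for all 6 libraries (circles) and without overexpression 1 (diamonds). Every interval includes 0; the interval of NOTCH2 with all 6 libraries runs from -0.08 to 1.22, and NOTCH3 is the gene whose estimate changes sign between both fits (0.75 and -0.32).

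Spread between libraries was wider among the overexpression libraries than among the controls for the better measured members. The coefficient of variation of FPKM was 26.8% in overexpressing against 7.30% in control cells for NOTCH1, 45.8% against 8.41% for NOTCH2, 27.96% against 4.54% for JAG1, 24.1% against 3.64% for JAG2 and 35.9% against 11.2% for HES1. Over the 5994 genes with a mean of 0.3 to 3 FPKM the median was 23.0% and 14.9%. The difference in spread itself was not tested.

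The machinery around the receptors gave no call either. Of 104 genes in 6 further lists, 95 were in the table and 91 were tested, and 0 passed in either direction with or without overexpression 1. With all libraries 60 of the 91 log2 fold changes were positive, with a median of 0.05, and without overexpression 1 it was 45 of 91 with a median of -0.00. The all-gene medians were 0.02 and 0.01.

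The list of receptor proteases held FURIN, ADAM10, ADAM17 and the presenilins, together with gamma-secretase subunits that do not cut. All 9 genes were tested, 7 were positive, and the median log2 fold change was 0.07, or 0.06 without overexpression 1. The gamma-secretase subunits PSENEN and APH1A averaged 53.7 and 50.9 FPKM over all 6 libraries, and FURIN, the convertase that processes the receptor before it reaches the surface, 18.2 FPKM. ADAM10, the sheddase that makes the first ligand-dependent cut, had 32.5, 17.5 and 13.7 CPM in overexpression 1, 2 and 3, against 14.1 to 15.6 CPM in control. The groups overlapped for ADAM10, with overexpression 1 standing high. Its log2 fold change was 0.51 (SE 0.30), or 0.06 (SE 0.16) without overexpression 1, while those of ADAM17 were 0.24 (SE 0.25) and 0.31.

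The glycosylation list held enzymes that put sugars on the receptor, which tune its choice of ligand, and TMED2, which is not such an enzyme. It gave 6 positive values of 12 tested, with a median of -0.02, or -0.03 without overexpression 1. The highest levels were those of RFNG (15.9 FPKM), a Fringe glycosyltransferase, POFUT1 (9.71 FPKM), which adds O-fucose, and TMED2 (6.68 FPKM), a cargo receptor of the early secretory pathway. By smallest p the list was led by POGLUT3 (log2 0.25, SE 0.22), MFNG (0.23, SE 0.22) and POFUT1 (-0.10, SE 0.11). These stood at 0.0006, 0.35 and -0.03 without overexpression 1.

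Trafficking and ubiquitination genes, for receptor or ligand, gave 12 positive values of 19, with a median of 0.01. Without overexpression 1 it was 4 of 19 with a median of -0.11. DTX2, a Deltex ubiquitin ligase, was the single gene of the 91 with an unadjusted p under 0.05, against 3.83% of all tested genes. DTX2 had 15.3, 17.7 and 14.9 FPKM in overexpression 1, 2 and 3, against 18.7, 19.4 and 16.1 FPKM in control 1, 2 and 3, and the groups overlapped in FPKM. In CPM they did not overlap, with 80.1, 91.0 and 87.8 in overexpression 1, 2 and 3 and 104, 105 and 92.5 in control 1, 2 and 3. The share of all genes whose groups separate in CPM is not given here. The edgeR estimate for DTX2 was a log2 fold change of -0.22 (SE 0.09, adjusted p = 0.994, unadjusted p 0.0462), or -0.17 (SE 0.11) without overexpression 1. MIB1, the ubiquitin ligase that ligands need for endocytosis, had 17.3, 2.48 and 2.77 CPM in overexpression 1, 2 and 3, against 2.59 to 3.08 CPM in control. A single library thus set its log2 fold change of 1.39 (SE 0.73), which was -0.13 (SE 0.21) without overexpression 1. ITCH stood at 0.46 (SE 0.39) and at -0.14 without that library, and the highest levels were those of EPN1 (23.8 FPKM), DTX2 and MIB2 (15.5 FPKM).

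Of 26 nuclear cofactors and corepressors 24 were tested, 19 were positive, and the median was 0.13, or 0.05 with 15 positive without overexpression 1. The median was 0.26 without overexpression 3. RBPJ, the DNA-binding partner of every Notch receptor, had 55.6, 4.72 and 10.3 CPM in overexpression 1, 2 and 3, against 9.43, 9.74 and 9.01 CPM in control 1, 2 and 3. RBPJ is named here after its values were seen: the overexpression libraries held both its highest and its lowest value. Its log2 fold change was 1.33 (SE 0.79, adjusted p = 0.994 by edgeR) and -0.33 without overexpression 1. CTBP2, a corepressor, stood at 0.68 (SE 0.37), HDAC2 at 0.46 (SE 0.25) and MAML2, a Mastermind coactivator, at 0.49 (SE 0.26), and without overexpression 1 at 0.08, 0.09 and 0.27. The highest levels were those of TLE5 (56.5 FPKM), RITA1 (18.1 FPKM), which exports RBPJ from the nucleus, and KAT2A (17.7 FPKM).

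Other known or candidate Notch targets gave 12 positive values of 21 tested, with a median of 0.02, or 0.03 without overexpression 1. Within the HES family, HES4 was far above HES1, at 55.3 FPKM on average over 6 libraries. The log2 fold change of HES4 was 0.03 (SE 0.17), or 0.11 without overexpression 1. HES6, which inhibits HES1 in mouse cells, averaged 28.3 FPKM, and HES2 and HES7 averaged 0.742 and 0.614 FPKM (these 3 were chosen after their values were seen). NRARP, a direct target that feeds back on Notch, averaged 0.566 FPKM and had a log2 fold change of -0.39 (SE 0.28), or -0.18 without overexpression 1. HEYL stood at 0.57 (SE 0.45), or 0.67 without overexpression 1. SNAI2, an EMT factor, stood at 1.07 (SE 0.66), or -0.18 without overexpression 1. CDKN1A and PLAU, each also controlled by many other pathways, had the highest levels, 87.8 and 85.4 FPKM.

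Of 11 further ligands and atypical ligands, 8 were in the table and 6 were tested, with 4 positive values and a median of 0.14, or 0.10 without overexpression 1. EGFL7, a secreted protein reported to bind Notch, averaged 49.3 FPKM, DLK2 2.99 FPKM and MFAP2 2.70 FPKM. THBS2 had a log2 fold change of 2.75 (SE 1.37), or 1.47 without overexpression 1, at a mean of 0.0293 FPKM. CCN3 stood at 0.47 (SE 0.28), or 0.51 without overexpression 1. MFAP2 stood at -0.32 (SE 0.18), or -0.33 without it.

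**Figure D4:**
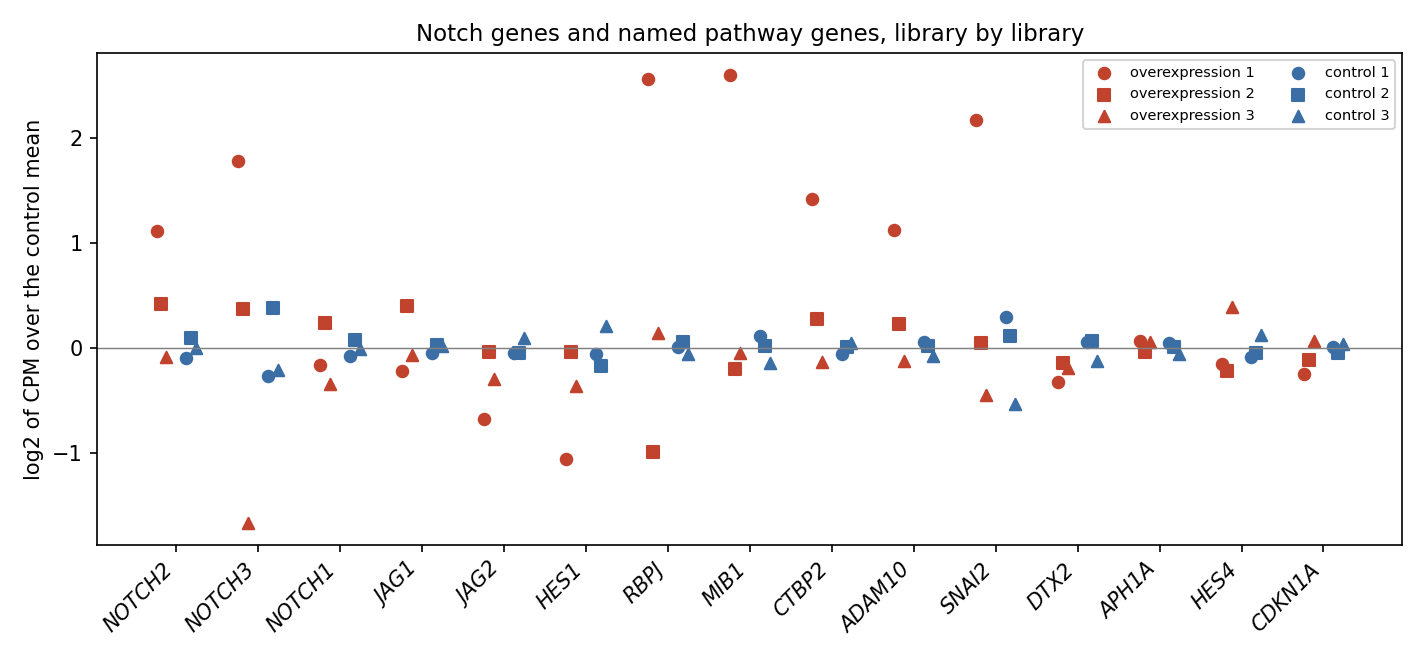
Log2 of CPM over the control mean for 6 members and 9 further pathway genes, library by library, with overexpression left of control. Overexpression 1 (red circles) is the highest library for NOTCH2, NOTCH3, RBPJ, MIB1, CTBP2, ADAM10, SNAI2 and APH1A and the lowest for HES1, JAG1, JAG2, DTX2 and CDKN1A.

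Overexpression 1, which set several of these values, also had high values of most fibroblast markers and of single markers from other lists. Of the 8 tested members, NOTCH2 and NOTCH3 had more than 1.5 times the CPM there of every other library, as did 11 of the 91 pathway genes and 9.52% of all tested genes. Of 13 fibroblast markers in the table, 12 were highest in overexpression 1, as were 26.2% of all tested genes. The summed level of the 13 was 203 CPM there, 66.1 and 47.5 CPM in overexpression 2 and 3, and 59.0 to 69.9 CPM in control. COL3A1, DCN and FAP were listed at 0 in the other 5 libraries. COL5A1, which had 53.7 CPM in overexpression 1 and 52.7 to 62.5 CPM in control, was the exception among the 13. Markers of mural cells, which express NOTCH3, summed to 55.3, 54.4 and 49.3 CPM in overexpression 1, 2 and 3 and to 52.3 to 56.3 CPM in control. Most of that sum was CSPG4 and MCAM. Of the 9 mural markers measured, 5 were highest in overexpression 1: MCAM had 21.01 CPM there and at most 16.9 CPM elsewhere, CNN1 0.514 and at most 0.191 CPM, ABCC9 0.211 and at most 0.0593 CPM, PDGFRB 6.95 and at most 6.60 CPM, and MYH11 0.171 and at most 0.153 CPM. The other markers went otherwise. CSPG4 had 22.0 CPM in overexpression 1, its lowest value, and 25.6 to 30.6 CPM elsewhere. ACTA2 and DES were highest in a control library. RGS5, a defining mural marker, was at or below 0.286 CPM in all libraries and highest in overexpression 2. Over all tested genes, 26.2% were highest in overexpression 1. Endothelial markers summed to 99.0 to 107 CPM in overexpressing and 92.6 to 115 CPM in control cells, nearly all of it ROBO4 and ESAM, and CDH5 was listed at 0 outside overexpression 1. Of 9 epithelial markers in the table only KRT14, a keratin gene, was highest in overexpression 1, with 3.71 CPM there and at most 0.524 CPM elsewhere. Of 9 markers of the line itself, 4 were highest there, among them CAV1 with 203 CPM and at most 99.0 CPM elsewhere. The part of fibroblast or mural RNA in the NOTCH2 and NOTCH3 values was not tested. In bulk RNA, a change in cells of another type and a change in RNA per cell cannot be told apart.

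Base composition also differed in overexpression 1. Tested genes of 40% GC lay 0.32 log2 above their mean over libraries there, and those of 65% GC lay -0.08 from it, where the other 5 libraries lay between -0.19 and 0.01 at 40% GC. At 65% GC the other 5 libraries lay between -0.07 (overexpression 2) and 0.14 (overexpression 3), so there overexpression 3 lay highest. The longest transcripts of NOTCH2, HES1 and JAG1 have 49.4%, 49.9% and 49.6% GC, and those of NOTCH1, NOTCH3 and JAG2 62.9%, 63.1% and 64.0%. With a GC offset per library the log2 fold changes were 0.56 for NOTCH2, -0.43 for HES1, -0.29 for JAG2 and 0.82 for NOTCH3, so they were about as large as without it.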

How the data were processed

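Per the submitters' processing notes, cutadapt 1.9, HISAT2 2.0.4, StringTie 1.3.4d and edgeR were applied to reads on build hg38. Annotation and strandedness are not given in the sources used here. The deposited table holds expected counts, whole numbers not scaled between libraries, and FPKM values computed by the authors per library. Low counts pile up at multiples of 4, so they may not be tallies of read pairs and no counting intervals are given.

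Genes were tested with edgeR 4.0.16 in R 4.3.3 (quasi-likelihood, TMM, filterByExpr with its minimum count of 10, group as the only term; common dispersion 0.0943). Tests are 2-sided, with Benjamini-Hochberg adjustment over 15951 genes. Standard errors were back-calculated from the log2 fold change and the F statistic of that fit, which does not report them. The 95% intervals were built from these standard errors. Means and SDs are of deposited FPKM. DESeq2 1.42.0 and limma 3.58.1 served as alternatives. The edgeR, DESeq2 and limma fitting functions were run on simulated counts with known changes, each in a single setting. Their other settings and the remaining steps were not simulated.

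The members and gene lists were chosen with earlier results of these data known. Named genes are the members, the NOTCH2 paralogs and, of each further list, the 3 tested genes with the smallest p and the 3 with the highest mean FPKM. GC content is that of the longest GENCODE 29 transcript, found for 96.2% of tested genes.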

Additional observations from a re-analysis of the deposited data

How the results depend on the processing

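None of the 8 tested members passed under the alternatives in which it could be fitted, which were 18 for NOTCH2 and HES1, 15 for NOTCH1, NOTCH3, JAG1 and JAG2, and 14 for NOTCH4 and DLL1. The limma fits and the filter at a mean FPKM of 1 hold only NOTCH2 and HES1, and with counts divided by 4 NOTCH4 and DLL1 fell below the filter. Leaving out 1 library turned the sign of small differences: NOTCH1 (0.049 without overexpression 3), NOTCH3 (-0.32 without overexpression 1), NOTCH4 (-0.30 without overexpression 3 and -0.08 without control 1) and JAG1 (-0.14 without overexpression 2). Over these the log2 ranges were -0.24 to 0.049, -0.32 to 1.24, -0.30 to 0.48 and -0.14 to 0.18. No other alternative that fitted a member turned its sign. HES1, JAG2, DLL1 and NOTCH2 kept theirs in their 18, 15, 14 and 18 alternatives, with ranges of -0.67 to -0.20, -0.47 to -0.17, -1.41 to -0.50 and 0.19 to 0.81. Over all genes, adjusted calls were 12 with DESeq2 and 0 to 4 with 1 library left out (4 without overexpression 1, 2 without overexpression 2); the cause was not tested. Genes with an unadjusted p under 0.05 numbered 611, and 307 to 1837 with 1 library left out (1837 without overexpression 3, 1120 without overexpression 2, and 307, 386 and 387 without control 1, 2 and 3). They numbered 200 and 194 with limma on log2(FPKM + 0.1) and log2(FPKM + 1), and 228 at a mean FPKM of at least 1, where fewer genes are tested. The median of further ligands was -0.045 and -0.044 with limma, -0.065 at a mean FPKM of at least 1 and 0.019 without the filter, each over other genes. With 1 library left out, the median of trafficking genes ran between -0.11 and 0.10 and that of nuclear factors between 0.045 and 0.26. Same-numbered libraries deviated together with r of -0.03, 0.04 and 0.07, and differently numbered ones with r of -0.10 to 0.06. With 3 libraries per group these values cannot show that pairing is absent. The labels name no pairs, so the numbers were not taken as pairs. With the replicate number as a block 0 genes passed and 438 had an unadjusted p under 0.05, and NOTCH3 stood at 0.25 in place of 0.75. Members under 20 counts were beyond what this depth resolves.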
